A study of Mus musculus with 7 samples.

Results

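Microglia, the resident macrophages of the brain, secrete growth factors and cytokines that act on vessels, glia and neurons after injury. The transcripts of 9 such trophic and repair factors, chosen by their symbols among the 50686 genes quantified, were compared between old and young male mice after stroke. They were the vascular growth factors Vegfa and Vegfb, the platelet-derived growth factor chains Pdgfa and Pdgfb, the cytokines Osm and Lif of the interleukin 6 family, the epidermal growth factor receptor ligand Hbegf, the neurotrophin Bdnf, and Grn, which encodes the secreted and lysosomal protein progranulin. Bodipy+ microglia, that is, cells selected for a dye that stains the neutral lipids of lipid droplets, were sorted from the forebrain of wild-type C57BL/6 mice. Every animal of both ages had undergone a 45 min occlusion of the middle cerebral artery 4 days earlier. Apart from the anesthesia and analgesia of that surgery, no drug treatment is stated for these mice. The Young group held 4 mice of 3 to 4 months (14C, 18C, 23C and 29C) and the Old group 3 mice of 21 to 22 months (2posI, 3posI and 4posI), with 1 polyadenylated RNA library per mouse and no unoperated mouse. Total expected counts were 36574083 to 53002386 per library.

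The factors act along a few known routes. Vegfa and Vegfb bind receptor tyrosine kinases of endothelium, and Vegfa is a classic target of the hypoxia-inducible factors, which the prolyl hydroxylase Egln1 marks for degradation when oxygen is present. Pdgfa and Pdgfb signal through Pdgfra and Pdgfrb, which glial progenitors, pericytes and fibroblasts carry. Osm and Lif share the receptor chain Il6st (gp130) and signal through Jak kinases and Stat3, with Socs3 as a feedback inhibitor. Hbegf is made as a membrane protein that the protease Adam17 sheds, Bdnf acts through Ntrk2, and progranulin is taken to lysosomes by Sort1 or together with prosaposin.

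In these cells Grn was among the most abundant transcripts and Osm was also high, while Pdgfa, Pdgfb and Vegfb were expressed at moderate levels. Vegfa and Hbegf were low, Lif was lower still, and Bdnf was at or near the limit of detection. None of the 8 factors that could be tested passed an adjusted p of 0.05 between the ages (quasi-likelihood test of edgeR, adjusted over all 17559 genes tested by the Benjamini-Hochberg method), where 0.803% of all genes tested, 141 of them, passed in either direction and 0.57% passed as higher in old mice. At an unadjusted p under 0.05 Vegfa alone passed, against 18.9% of all genes tested. limma-voom called 0 of the 8, against 0.814% of all genes tested, with Vegfa under an unadjusted 0.05. DESeq2 called 0 of the 7 for which it gave a p, against 9.51% of the genes to which it gave an adjusted p, with Pdgfa under an unadjusted 0.05. Vegfa was also the 1 factor without overlap between the ages in CPM (counts scaled to the library total), against 17.8% of all genes tested. The coefficient of variation of CPM was larger among old than among young mice for 6 of the 8, and smaller for Grn (5.62% against 12.5%) and Hbegf (3.90% against 39.7%). For 6 of the 8 factors, the highest library was an old one. The share over all genes tested was not taken for either count, so neither is read as particular to these factors. Mouse 3posI was highest for Vegfa, Osm and Lif and lowest for Vegfb and Pdgfb, and mouse 4posI was highest for Vegfb, Pdgfa and Pdgfb.

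Library 3posI also stood apart in markers of cell type. The cells had been stained for CD11b and CD45, and the study describes its Bodipy+ microglia as CD11b+ CD45low, a gate meant to leave out leukocytes with high CD45. The 7 microglial markers summed to 12890 to 18210 TPM (a transcript level per length, scaled within each library) in young mice, 12480 in 2posI, 13200 in 4posI and 5580 in 3posI. Of these 7 markers, 6 were fitted lower and 1 higher in old mice, and none passed the adjusted threshold. The 5 monocyte markers (Ly6c2, Ccr2, Plac8, Chil3 and F13a1) summed to 27.0 to 113 TPM in young mice, 102 in 2posI, 125 in 4posI and 1948 in 3posI. None of the 5 was at 0 in any library, and Chil3 reached 1217 TPM in 3posI. All 5 were fitted higher in old mice, 4 of them under an unadjusted p of 0.05 in edgeR and none past the adjusted threshold. In CPM the ages did not overlap for Ly6c2 and Plac8, while they did for Ccr2, Chil3 and F13a1. Ly6c2 was at 2.06 to 5.96 TPM in young mice, 27.7 in 2posI, 320 in 3posI and 19.6 in 4posI. Its log2 fold change was 5.33 (SE 1.01, edgeR adjusted p = 0.0539). Border macrophage markers summed to 825 TPM in 3posI against 49.9 to 238 in the other 6 libraries, 775 of it from Pf4, while Mrc1 was at 19.4 TPM there against 3.40 to 18.8 elsewhere. All 5 border macrophage markers were fitted higher in old mice, none past the threshold, with Cd209f at 2.46 on the log2 scale (SE 0.72, edgeR adjusted p = 0.133) and no overlap. T cell markers summed to 0.94 to 4.85 TPM in young and 2.09 to 4.41 in old mice. All 5 were fitted higher in old mice, 4 of them under an unadjusted p of 0.05 and none past the threshold, with Cd8a at 5.48 (SE 1.05, edgeR adjusted p = 0.0565), no overlap and at most 0.32 TPM. Neutrophil markers (87.2 to 428 TPM), B cell markers (9.67 to 25.4 TPM) and pericyte markers (12.3 to 38.7 TPM) overlapped between the ages. Fibroblast markers were 12.7 to 93.4 TPM in young mice, highest in 23C, and 3.18 to 12.99 in old mice. All 4 fibroblast markers were fitted lower in old mice (median -2.53), each under an unadjusted p of 0.05 and none past the threshold. The 5 endothelial markers summed to 31.6 to 76.6 TPM in young and 17.9 to 31.3 TPM in old mice, all 5 were fitted lower, and Slco1a4, a transporter of brain vessels, fell by 1.66 on the log2 scale (SE 0.23, edgeR adjusted p = 0.0280). Astrocyte markers were 24.2 to 67.8 TPM and oligodendrocyte markers 71.9 to 82.7 TPM over all libraries. The 6 neuronal markers summed to at most 2.80 TPM. In bulk libraries, a transcript made by fewer cells and one made at a lower level per cell cannot be told apart, so every result below is given for the sorted population. Values without 3posI are given for some genes only, and the others may depend on that library too.

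**Figure D1:**
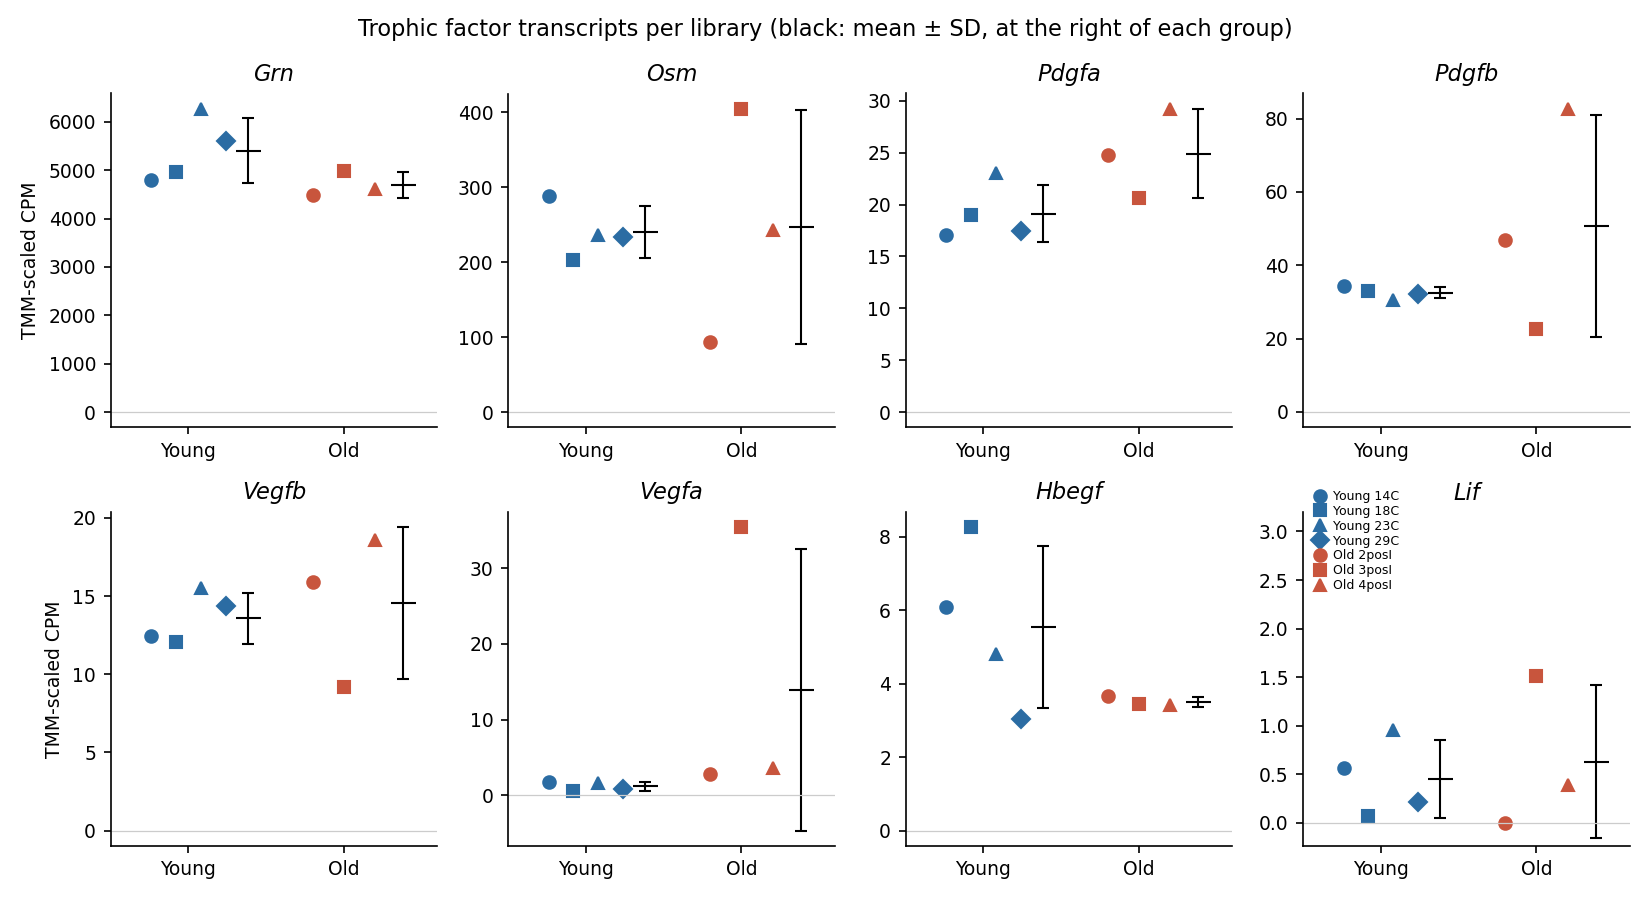
TMM-scaled CPM of the 8 tested factors (y axis, linear, one scale per panel) in the 4 young (blue) and 3 old (red) libraries, with the group mean ± SD in black. The old Vegfa libraries sit between 2.77 and 35.4 CPM, above the young libraries at 0.604 to 1.73, and old Osm and Pdgfb libraries lie on both sides of the young ones.

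Vegfa (chromosome 17, 46016993 to 46032369, minus strand, GRCm38), which encodes the main angiogenic and permeability factor, was low in every library but one. Its expected counts were 80, 27, 81 and 37 in young mice 14C, 18C, 23C and 29C, and 93, 1386 and 169 in old mice 2posI, 3posI and 4posI. Scaled by the TMM factors, these were 1.73, 0.604, 1.59 and 0.796 CPM in the young and 2.77, 35.4 and 3.65 CPM in the old libraries. The lowest old library lay above the highest young one, and 3posI lay far above the other old mice. The means were 1.18 ± 0.563 CPM (SD, n = 4) in young and 13.9 ± 18.6 CPM (SD, n = 3) in old mice. The fitted log2 fold change was 3.56 (SE 0.89) with an adjusted p of 0.0973 in edgeR's quasi-likelihood test and an unadjusted p of 0.00331. Without 3posI it was 1.44 (SE 0.46, edgeR adjusted p = 0.169), and without any other library it lay between 3.34 and 4.04. Vegfa passed the threshold in 1 alternative, with no filter on low counts (edgeR adjusted p = 0.0421), and DESeq2 gave it a log2 fold change of 3.58 with no p. The high Vegfa of 3posI stood beside the high monocyte markers of that library, whose part in the result was not tested.

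**Figure D2:**
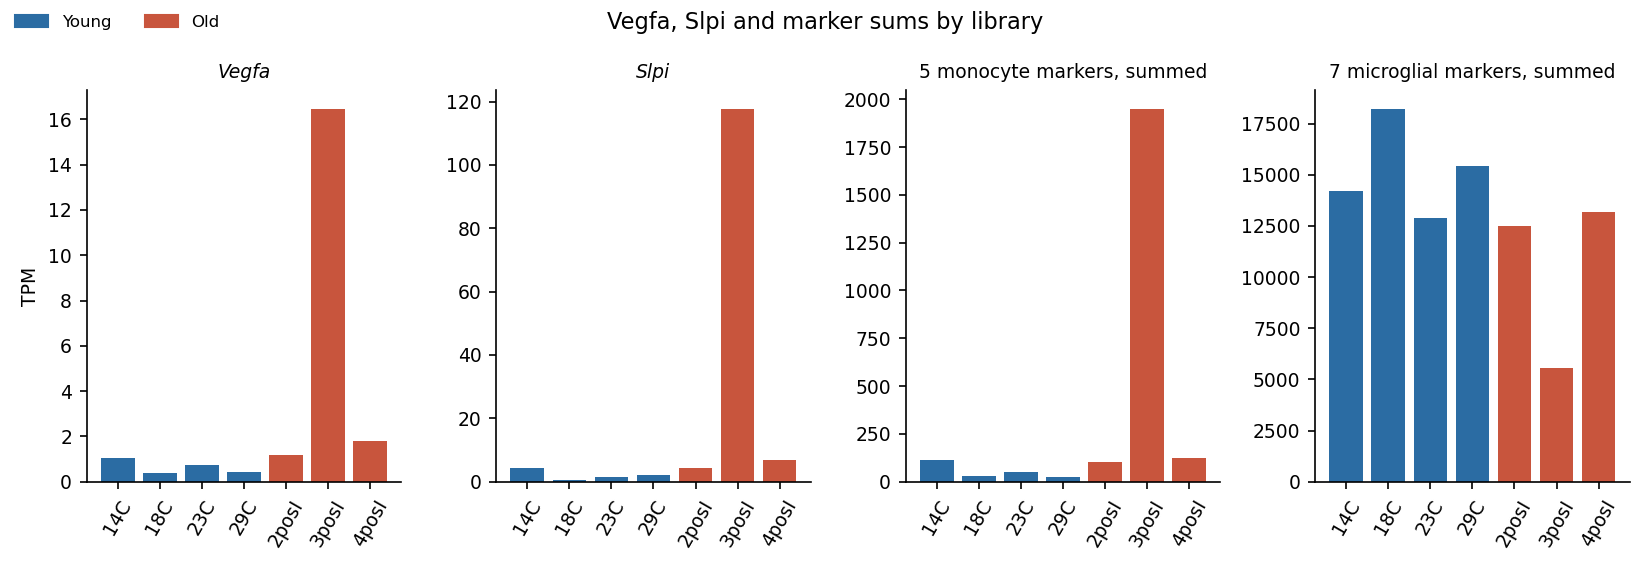
TPM by library (linear axes from 0) of Vegfa, of Slpi, and of the summed monocyte and microglial markers, young in blue and old in red. Library 3posI is highest in the first 3 panels, with 16.4 TPM for Vegfa, 118 for Slpi and 1948 for the monocyte markers, and lowest in the last with 5580.

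Vegfb (chromosome 19, 6982473 to 6987651, minus strand), a relative of Vegfa with a narrower action on vessels, was the more abundant of the pair in 6 of 7 libraries. It was at 12.4, 12.1, 15.5 and 14.4 CPM in 14C, 18C, 23C and 29C and at 15.9, 9.17 and 18.6 CPM in 2posI, 3posI and 4posI. The old libraries lay on both sides of the young ones. The log2 fold change was 0.10 (SE 0.24, edgeR adjusted p = 0.852). It was -0.12 without 4posI and 0.34 without 3posI, and 3 of the 18 alternatives turned its sign. Within a library, the ratio of Vegfa to Vegfb in TPM does not depend on how libraries are scaled. It was 0.0677, 0.0255, 0.0395 and 0.0260 in the young and 0.0704, 1.63 and 0.0788 in the old mice. The 2posI and 4posI ratios were close to that of young mouse 14C. On the log2 scale the ratio was -4.78 ± 0.66 in young and -2.26 ± 2.57 in old mice, a difference of 2.51. An exact two-sided permutation test over the libraries gave p = 0.0286, the smallest that 3 against 4 libraries can give, and without 3posI the difference was 1.03 with an exact p of 0.133.

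Of the platelet-derived growth factor chains, Pdgfa (chromosome 5, 138976014 to 138997370, minus strand) feeds glial progenitors and Pdgfb (chromosome 15, 79995874 to 80014977, minus strand) recruits pericytes. Pdgfa was at 17.0, 19.0, 23.0 and 17.5 CPM in the young and 24.8, 20.6 and 29.3 CPM in the old libraries, and 3posI lay within the young range. Its log2 fold change was 0.38 (SE 0.17, edgeR adjusted p = 0.265, unadjusted p = 0.0504), between 0.24 without 4posI and 0.50 without 3posI. All 7 of its expected counts were fractional, that is, further than 0.001 from a whole number. The antisense gene 6330403L08Rik overlaps it and had 73.1 to 188 expected counts, and in libraries that the labels call non-stranded the reads of the 2 genes cannot be told apart over the overlap. The level of Pdgfa is uncertain to that extent.

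Pdgfb was nearly the same in all 4 young mice, at 34.5, 32.9, 30.6 and 32.3 CPM, a coefficient of variation of 4.89%. The old libraries were at 47.0, 22.6 and 82.7 CPM, a coefficient of variation of 59.6%, with 3posI below and the other 2 above every young library. The log2 fold change was 0.64 (SE 0.35, edgeR adjusted p = 0.355). It was 1.00 without 3posI (SE 0.20, edgeR adjusted p = 0.0686) and 0.09 without 4posI (edgeR adjusted p = 0.873), so its size depends on which of these 2 libraries is kept. The within-library TPM ratio of Pdgfa to Pdgfb was 0.983, 1.18, 1.51 and 0.944 in the young and 1.03, 1.71 and 0.721 in the old libraries. The log2 ratio differed between the ages by -0.07, with 0.18 ± 0.31 in young and 0.12 ± 0.63 in old mice and an exact two-sided permutation p of 0.886.

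Osm (oncostatin M, chromosome 11, 4236420 to 4241026, plus strand) and Lif (leukemia inhibitory factor, chromosome 11, 4257557 to 4272514, plus strand) are neighbours in the genome and both signal through Il6st, but differed widely in level. Osm was at 288, 203, 237 and 233 CPM in the young mice 14C, 18C, 23C and 29C. In the old mice it was at 92.8 CPM in 2posI, 405 in 3posI and 244 in 4posI, so that the old libraries held the lowest, the highest and a middle value. The means were 240 ± 35.1 CPM (SD, n = 4) in young and 247 ± 156 CPM (SD, n = 3) in old mice. The log2 fold change was 0.04 (SE 0.40, edgeR adjusted p = 0.967), and it was -0.51 without 3posI and 0.43 without 2posI. Its sign turned in 7 of the 18 alternatives.

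Lif had 26, 3, 49 and 10 expected counts in the young and 0, 59 and 18 in the old libraries. These were 0.563, 0.0671, 0.961 and 0.215 CPM in young mice and 0, 1.51 and 0.389 CPM in old mice. A count of 0 in 2posI allows up to 3 counts, or 0.0894 CPM in that library. The ages overlapped and each group spanned low and higher values. The log2 fold change of 0.48 had an SE of 1.19 (edgeR adjusted p = 0.858) and was -1.16 without 3posI. Counts within each age differed widely between mice.

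Hbegf (chromosome 18, 36504927 to 36515805, minus strand), a growth factor for glia and epithelia that is released by shedding, was at 6.08, 8.26, 4.81 and 3.03 CPM in the young libraries. The old libraries were at 3.67, 3.45 and 3.41 CPM, within 3.90% of each other as a coefficient of variation, against 39.7% in young mice. Young mouse 29C lay below all 3 old mice and the other 3 young mice lay above them. The log2 fold change was -0.66 (SE 0.33, edgeR adjusted p = 0.316), between -0.86 without 29C and -0.40 without 18C. Hbegf was negative in all 18 alternatives, and passed the threshold in none of them.

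Bdnf (chromosome 2, 109674700 to 109727007, plus strand) had 1 count in 18C, 2 in 3posI and 0 in the other 5 libraries. It was under the count filter and was not tested. Each library's 0 allows up to 3 counts, or 0.0589 to 0.0894 CPM, and counting error alone is covered by that limit. No fold between the ages is given for values at or under it.

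Grn (chromosome 11, 102430315 to 102437048, plus strand) was at 4787, 4962, 6271 and 5601 CPM in the young and 4479, 4988 and 4616 CPM in the old libraries. Old mouse 3posI lay above 14C and 18C, and the other 2 old mice lay below all young ones. The means were 5405 ± 675 CPM (SD, n = 4) and 4694 ± 264 CPM (SD, n = 3). The log2 fold change was -0.20 (SE 0.18, edgeR adjusted p = 0.568), and it stayed between -0.28 and -0.12 in the 18 alternatives. Grn was 24th to 42nd by TPM among all genes of a library. The 3 other tested genes with the most similar pattern over the 7 libraries, by Pearson's r of log2(CPM + 1), were Ppcs (0.988, at 9.39 to 14.6 CPM), Zic4 (0.987) and Gm16409 (0.979). Zic4 and Gm16409 were at no more than 0.628 and 0.265 CPM. These r are a description over 7 libraries that share depth and scaling, without a test.

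**Figure D3:**
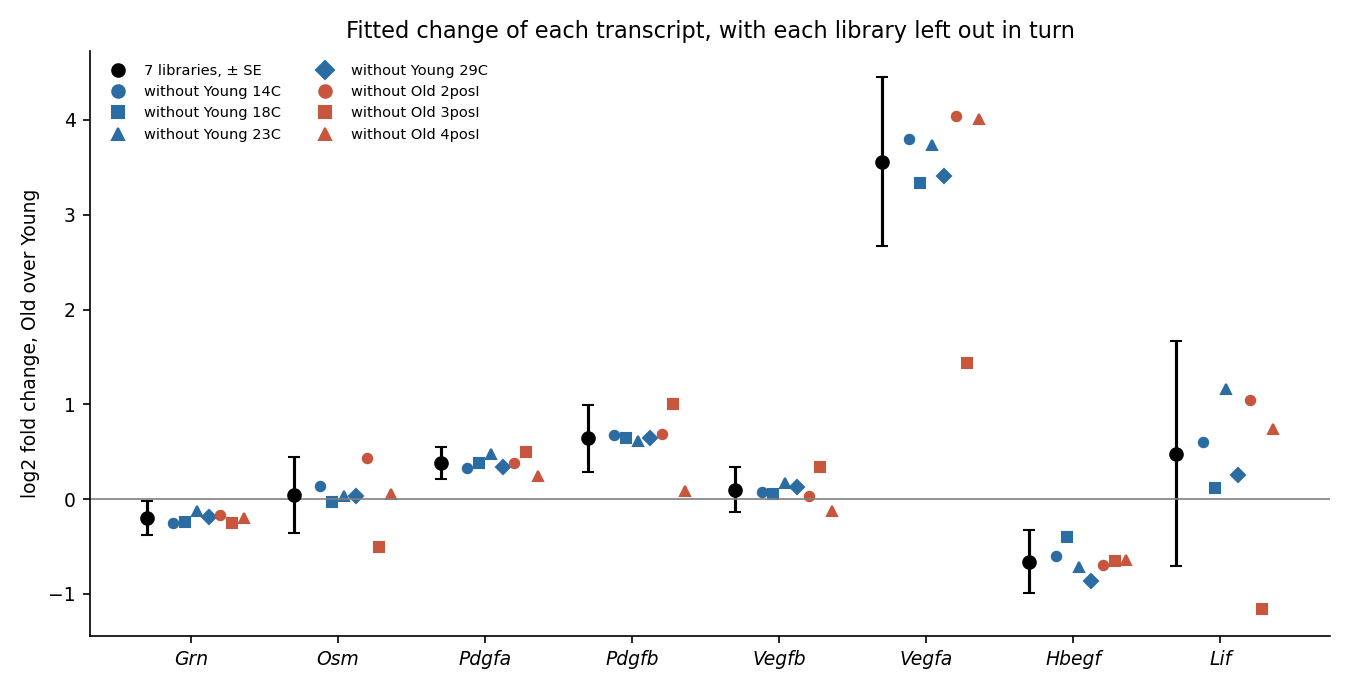
Fitted log2 fold change of old over young mice (y axis) for the 8 tested factors, with all 7 libraries (black, ± SE) and with each library left out (coloured symbols). Leaving out 3posI moves Vegfa from 3.56 to 1.44 and turns Osm and Lif negative, leaving out 4posI brings Pdgfb to 0.09, and Grn and Hbegf stay below 0 throughout.

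Levels can be compared between genes per length, in TPM. By the mean over the 7 libraries the order was Grn (3134 TPM, range 2484 to 4011), Osm (150 TPM, 51.2 to 234), Pdgfa (20.0 TPM, 13.9 to 29.6), Pdgfb (19.2 TPM, 10.0 to 41.1), Vegfb (16.2 TPM, 10.1 to 22.8), Vegfa (3.14 TPM, 0.37 to 16.4), Hbegf (2.76 TPM, 1.71 to 5.11), Lif (0.189 TPM, 0 to 0.51) and Bdnf (0.00429 TPM, 0 to 0.02). Grn was above Osm, and Osm above Pdgfa, in 7 of 7 libraries. Pdgfa was above Pdgfb, and Pdgfb above Vegfb, in 4 of 7 libraries, so these neighbours did not differ beyond their spread, while Pdgfa was above Vegfb in 6 of 7. The mean of Vegfa is set by 3posI. By the median Hbegf (2.09 TPM) was above Vegfa (1.03 TPM), as it was in 6 of 7 libraries. The lowest Hbegf library was above the highest Lif library. RSEM's effective length, which moves with the transcript forms that reads are assigned to, was 2336 to 3085 bases for Vegfa and 1407 to 1644 bases for Pdgfa, against 2199 to 2215 for Grn, 2191 to 2216 for Osm and a constant 2869 for Pdgfb and 2324 for Hbegf. The old Vegfa libraries had 2734 to 2929 bases and the young ones 2336 to 3085, so they overlapped, and with effective length as an offset Vegfa had a log2 fold change of 3.46 (SE 0.88, edgeR adjusted p = 0.0966).

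**Figure D4:**
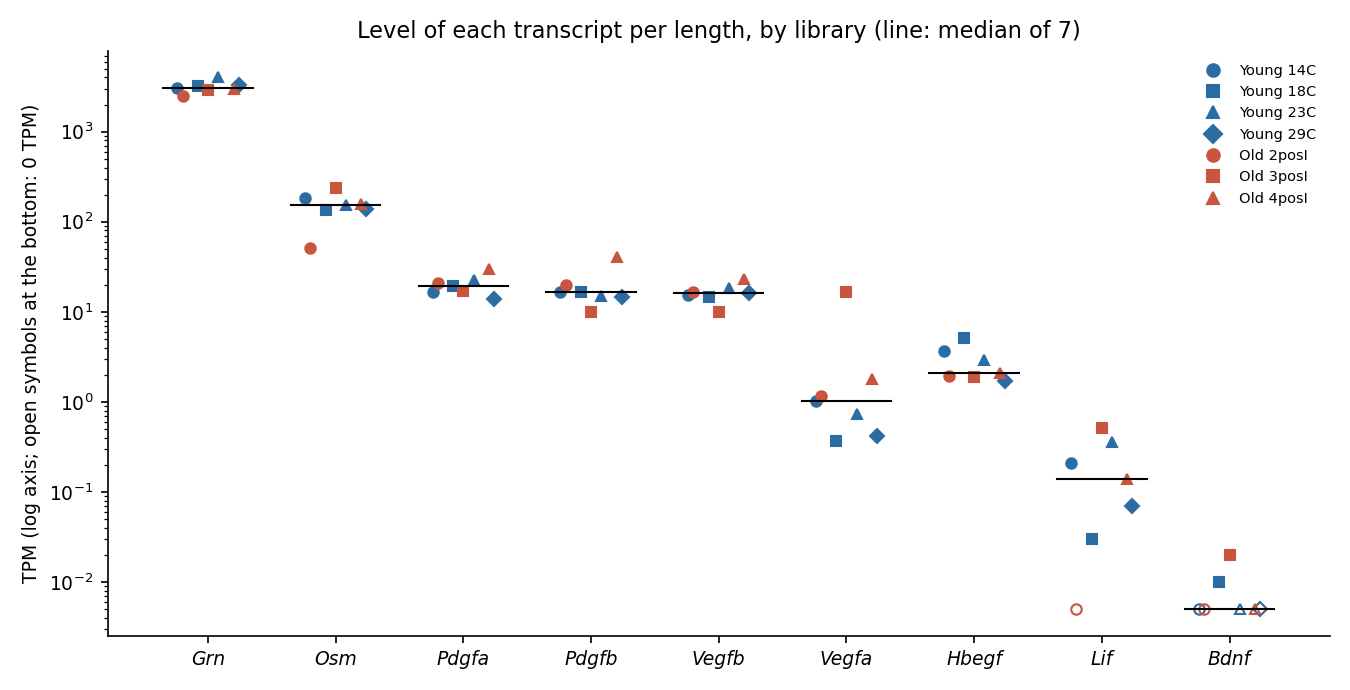
TPM of each of the 9 factors (log axis) in young (blue) and old (red) libraries, with the median of 7 as a line, and libraries at 0 TPM drawn as open symbols at the bottom. Grn and Osm stand above the rest, Pdgfa, Pdgfb and Vegfb overlap between 10.0 and 41.1 TPM, and Bdnf is at 0 in 5 libraries.

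The receptors and partners of these factors, and the genes that answer them, were read from the same fit in 7 lists of 118 genes, 105 of them tested. One of the 105 passed in edgeR, Egln1, against 0.803% of all genes tested, and limma-voom called the same gene alone. DESeq2 called 11 of them, against its 9.51% of all genes. Unless another tool is named, calls and adjusted p below are those of edgeR. Of the 105, 33 had a higher and 72 a lower fitted value in old mice, with a median log2 fold change of -0.23, where all 17559 genes had 8571 higher and 8988 lower and a median of -0.01.

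None of the 12 tested receptors passed the threshold, and 3 were fitted higher and 9 lower (median -0.25). Il6st, the chain shared by Osm and Lif, was at 46.5, 56.2, 30.3 and 40.9 TPM in the young and 15.8, 11.9 and 29.2 TPM in the old libraries. In CPM its ages overlapped, and the log2 fold change was -0.70 (SE 0.27, edgeR adjusted p = 0.220), or -0.48 without 3posI. Kdr, the main Vegfa receptor of endothelium, had 0.56 (SE 0.26, adjusted p = 0.301) but 0.15 without 3posI, and it stood beside endothelial markers that were lower in old mice. Lifr had -0.66 (SE 0.32, adjusted p = 0.306), or -0.45 without 3posI. Receptors typical of other cells were low, with Pdgfra and Pdgfrb at 0.11 to 1.88 TPM and highest in 23C, the library with the most fibroblast markers. The part of those cells in these values was not tested. Nrp1, a co-receptor for Vegfa, was the most abundant of the list at 64.8 to 112 TPM.

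Among the 14 tested proteases and partners, 7 were fitted higher and 7 lower and none passed (median 0.02). Slpi, a protease inhibitor that binds progranulin and protects it from cleavage, was at 4.20, 0.59, 1.56 and 2.21 TPM in the young and 4.25, 118 and 6.91 TPM in the old libraries. Its log2 fold change was 4.41 (SE 1.16, edgeR adjusted p = 0.112) and 1.39 without 3posI (adjusted p = 0.293), the library with the high monocyte markers. Psap, which carries progranulin to lysosomes, was at 3066 to 3921 TPM in young mice and at 4220, 7346 and 3920 TPM in the old ones, and the fitted change was 0.69 on the log2 scale (SE 0.27, adjusted p = 0.220), or 0.33 without 3posI. Pcsk7, a proprotein convertase, had -0.33 (SE 0.13, adjusted p = 0.220). Adam17, the sheddase of Hbegf, was at 74.8 to 81.2 TPM in young and 52.1 to 57.1 TPM in old mice, and its log2 fold change in CPM was -0.24 (SE 0.11, adjusted p = 0.275).

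Of 24 related ligands outside the 9 factors, 17 were tested, with 7 fitted higher, 10 lower and none past the threshold (median -0.23). The 3 with the smallest p were Fgf2 at 0.98 (SE 0.44, edgeR adjusted p = 0.271), Tgfa at -0.59 (SE 0.29, adjusted p = 0.304) and Pgf at -2.11 (SE 1.09, adjusted p = 0.337). Without 3posI, Fgf2 was at 1.36, Tgfa at -0.29 and Pgf at -1.77. Fgf2 did not exceed 1.09 TPM and Pgf 2.11 TPM. Tgfa, a ligand of the receptor that Hbegf binds, was at 26.9 to 43.1 TPM in young and 8.44 to 24.3 TPM in old mice, above Hbegf in every library. In CPM, the scale of the test, the ages overlapped for Tgfa. The neurotrophins Ntf3 and Ntf5, like Bdnf, were at or below 0.12 TPM.

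Among 18 genes of downstream signalling and feedback, 6 were fitted higher and 12 lower, and none passed in edgeR or limma-voom (median -0.35). DESeq2 called 4, Tyk2, Spry1 and Socs3 lower and Jak2 higher. Tyk2, a Jak family kinase, was at 15.7 to 19.9 TPM in young and 8.11, 11.6 and 11.3 TPM in old mice. The fitted change was -0.71 on the log2 scale (SE 0.14, edgeR adjusted p = 0.0591), and it passed without 3posI (-0.82, adjusted p = 0.0447). Jak2, another kinase of the family, lay the other way at 3.79 to 4.71 TPM in young and 6.26, 8.18 and 6.28 TPM in old mice, with 0.79 (SE 0.18, adjusted p = 0.0801). Spry1, a feedback inhibitor of receptor tyrosine kinases, was at 8.18 to 12.1 TPM in young and 4.21, 2.12 and 6.40 TPM in old mice, with -1.23 (SE 0.31, adjusted p = 0.0979). In these 3 and in Socs3, that is, in 4 of the 18 genes, there was no overlap between the ages in CPM, against 17.8% of all genes tested.

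The next list held the hypoxia-inducible factors, which are known to drive Vegfa, and their targets. Of its 17 tested genes, 1 rose and none fell in edgeR and limma-voom. It was Egln1, the oxygen-sensing hydroxylase, at 2.98, 2.68, 1.83 and 2.57 TPM in the young and 6.57, 5.16 and 5.59 TPM in the old libraries. Its log2 fold change was 1.30 (SE 0.21, edgeR adjusted p = 0.0401) and lay between 1.14 and 1.39 with each library left out. Its adjusted p was then 0.0447 to 0.122, and it passed without 3posI but in none of the other 6 fits, where fewer genes passed in all. It also passed in limma-voom (adjusted p = 0.0409) but not in limma on log2(TPM + 1) or log2(TPM + 0.1). Over the whole list, 4 genes were fitted higher and 13 lower, with a median of -0.20. Slc2a1, a glucose transporter, was at 99.8 to 137 TPM in young and 51.2, 86.0 and 80.9 TPM in old mice (log2 fold change -0.65, SE 0.19, adjusted p = 0.132), and DESeq2 called it lower (adjusted p = 0.0324). Pfkfb3, a regulator of glycolysis, had -0.44 (SE 0.16, adjusted p = 0.185). Hif1a itself was highest in 3posI at 265 TPM against 142 to 201 TPM elsewhere, with 0.14 (SE 0.23, adjusted p = 0.775).

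None of the 13 tested lysosomal genes that accompany Grn passed in edgeR or limma-voom, with 5 fitted higher, 8 lower and a median of -0.07. Ctsd, the lysosomal aspartic protease cathepsin D, was at 28780 to 34020 TPM in young and 15940 to 22660 TPM in old mice (log2 fold change -0.65, SE 0.23, edgeR adjusted p = 0.191, DESeq2 adjusted p = 0.00147). Npc2, a cholesterol carrier of the lysosome, had 0.49 (SE 0.17, edgeR adjusted p = 0.179, DESeq2 adjusted p = 0.0436).

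The immediate early genes, which growth factors and tissue dissociation can both induce, were fitted lower in 13 of 14 cases with a median of -0.47, and none passed in edgeR or limma-voom, while DESeq2 called Fosb and Hspa1a lower. Fosb was at 238, 254, 216 and 144 TPM in the young and 40.4, 101 and 118 TPM in the old libraries (log2 fold change -1.24, SE 0.33, edgeR adjusted p = 0.110, DESeq2 adjusted p = 0.00416), with no overlap. Hspa1a had -1.0 (SE 0.31, edgeR adjusted p = 0.153, DESeq2 adjusted p = 0.0284) and Junb -0.72 (SE 0.30, adjusted p = 0.238), and in both the ages overlapped.

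**Figure D5:**
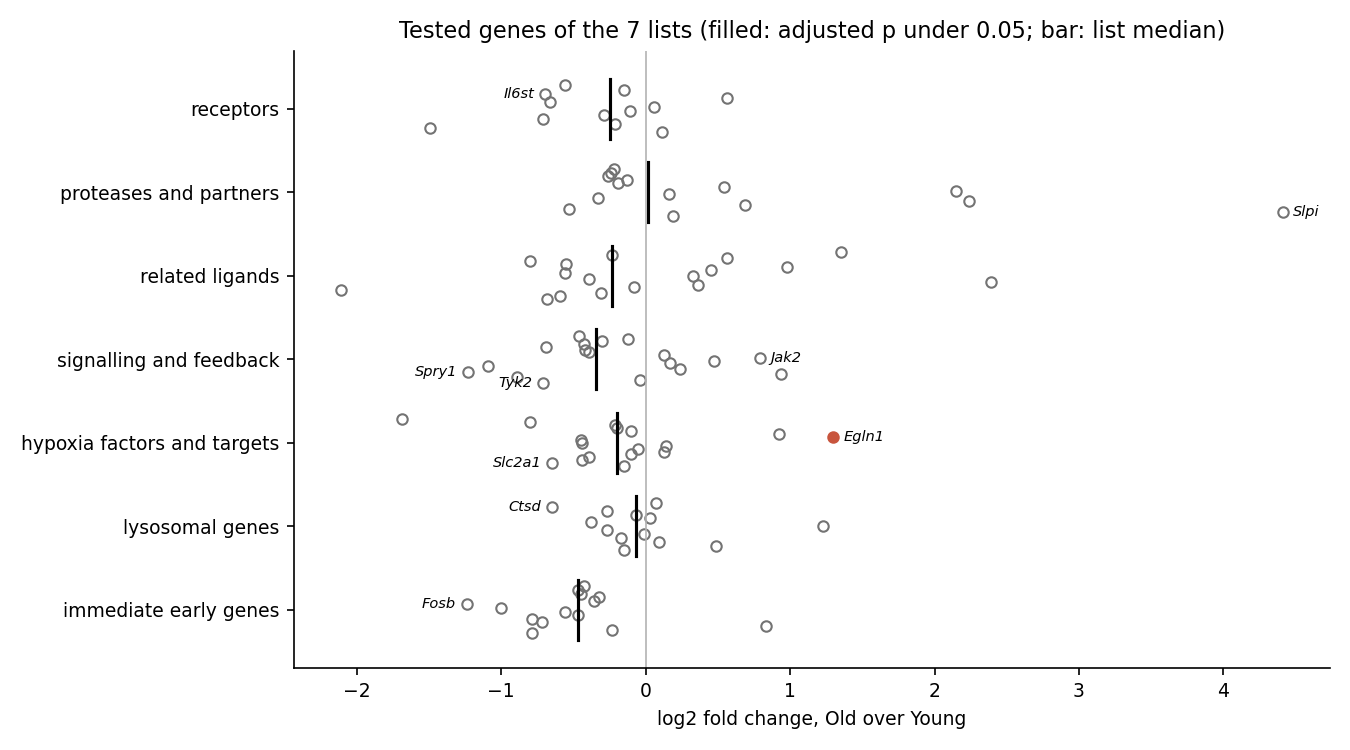
Log2 fold change of old over young mice (x axis) for the 105 tested genes of the 7 lists (rows), filled where the adjusted p was under 0.05, with the list median as a bar. Egln1 at 1.30 is the filled point, Slpi at 4.41 lies furthest to the right, and 13 of 14 immediate early genes lie below 0.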

How the data were processed

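Bodipy+ microglia of 4 young and 3 old mice were analysed, grouped by the sample labels. The libraries were made by Smart-seq2 and are non-stranded per the labels. The authors used skewer for trimming, STAR for alignment to GRCm38, and RSEM with a GENCODE annotation for quantification. The sources used here give no version for the aligner or the quantifier. The deposited expected counts are not normalized, the deposited TPM values are scaled within each library, and the deposited effective lengths are in bases. FPKM values were not used.

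Expected counts were rounded. A gene was tested if any library had more than 10 and if it was neither sex-linked nor mitochondrial. In R 4.3.3, edgeR 4.0.16 gave TMM factors and the quasi-likelihood test of age. Calls have an adjusted p under 0.05 (Benjamini-Hochberg, all genes). SE is the fold change divided by the root of F. Scripts were tested on simulated counts. Coordinates came from a later GENCODE release on GRCm38.

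The results were recomputed by voom (limma 3.58.1), plain and with quality weights, DESeq2 1.42.0, other factors, filters and offsets, limma on log2(TPM + 1) and log2(TPM + 0.1), a threshold of 0.10, and each library left out. Ratios were also taken in CPM. Text names all 9 factors, called genes of a list and its 3 smallest p (1 lysosomal gene is not reported here), and the 3 genes most like the most abundant factor. Nrp1, Pdgfra, Pdgfrb, Adam17, Hif1a, Ntf3, Ntf5 and the marker genes were named after their values were seen. The factors and lists were chosen with earlier results of these data known. Without molecular identifiers, limits on counts cover counting error only. Each library is 1 mouse. The labels give no batch, so batch and age cannot be told apart if they coincide.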

Additional observations from a re-analysis of the deposited data

How the results depend on the processing

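No paired analysis was possible because the labels give the ages no shared animal numbers. No factor passed in the main test, and 1 did with no filter on low counts or at an adjusted p under 0.10, in each case Vegfa (3.53 with no filter). With each library left out the count was 0. Over the lists 1 gene passed, against 4 with limma-voom quality weights, 11 with DESeq2, 2 with no filter, 0 with limma on log2(TPM + 1) or log2(TPM + 0.1), and 4 at 0.10, and 0 to 2 with a library left out. Over all genes 141 passed, against 318 with quality weights, 1403 with DESeq2, 288 with no filter, 64 and 71 on the TPM scales, 637 at 0.10, and 1 to 159 with a library left out. The count was 1 without 14C, 18C or 2posI, 2 without 29C, 14 without 23C, 85 without 4posI and 159 without 3posI. The 141 split into 100 higher and 41 lower, against 120 and 85 with the effective length offset, 32 and 32 on log2(TPM + 1) and 34 and 37 on log2(TPM + 0.1), a scale on which the median of all genes was -0.13.

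The sign turned for Vegfb on log2(TPM + 1) (-0.03), log2(TPM + 0.1) (-0.04) and with a library left out (-0.12 to 0.34). It turned for Osm with limma-voom (-0.20), quality weights (-0.53), upper-quartile factors (-0.01), log2(TPM + 1) (-0.28), log2(TPM + 0.1) (-0.29) and with a library left out (-0.51 to 0.43), and for Lif with limma-voom (-0.48), quality weights (-1.31) and a library left out (-1.16 to 1.16). The log2 ratio of Vegfa to Vegfb differed by 1.03 to 3.30 with a library left out, where the splits that remain cannot give a p under 0.05, and that of Pdgfa to Pdgfb by -0.39 to 0.23. Grn, Vegfa, Pdgfa, Pdgfb and Hbegf kept their sign in all 18 alternatives. DESeq2 gave Vegfa no p, and among the alternatives that did, Vegfa changed its side of the threshold with no filter alone. The causes were not tested. Bdnf, at 0 to 2 counts per library, was at or under the limit that a count of 0 allows.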
